A study of Mus musculus with 48 samples.

Results

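Endothelial genes that mark capillaries, 10 in number, are described here in circadian RNA-sequencing of mouse tibialis anterior, a fast muscle of the lower leg. They were chosen by name, as *Pecam1*, *Cdh5*, *Kdr*, *Flt1*, *Tek*, *Tie1*, *Egfl7*, *Esam*, *Cldn5* and *Fam110d*. The rule itself uses no measured value, but the names were chosen with earlier results of these data known. In all, 10 of 10 were found among the 56748 genes of the table, and 10 of 10 were among the 15637 genes with enough reads to be tested. Muscle was taken from male mice 39 to 55 weeks old, 48 mice in all, in 24 groups of 2 mice. The series design gives WT mice as homozygous FoxP1fl/fl without Cre. The sample labels and the study's methods give them as C57BL/6J, and which account holds is not settled here. FoxP1SkmKO mice carried homozygous FoxP1fl/fl alleles with ACTA1-Cre, in which the skeletal actin promoter drives Cre in muscle fibers and not in endothelial cells. KPC mice had received murine KPC pancreatic cancer cells in 50 µl of PBS by injection into the pancreas, and control mice had received 50 µl of PBS in the same operation. All mice had been entrained to 12 h of light and 12 h of dark and were then held in constant darkness, and muscles were collected every 4 h from circadian time 18 (CT18) to CT38. CT18 fell at midnight, and the hour at which the lights had formerly come on lay between CT22 and CT26. Each genotype and condition thus formed an arm of 12 mice, 2 at each of 6 times.

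Capillaries run alongside every muscle fiber, and their wall is a single layer of endothelial cells. These cells are held together by VE-cadherin at adherens junctions and by claudin-5 and related proteins at tight junctions, while VEGF-A from muscle fibers and other cells acts on them through the receptor VEGFR2, and angiopoietins act through the receptor TIE2. Endothelial cells have circadian clocks of their own, and blood flow, nutrient supply and the traffic of blood cells through muscle vary with the daily cycle of rest and activity. The 10 genes are expressed across blood endothelium, and not in capillaries alone, so that their level in whole muscle does not give the capillary share.

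RefSeq promoter windows, from 250 bases before to 50 bases after a transcription start, were found for 7 of the 10 genes on GRCm38.p6, in 9 windows; *Fam110d* was matched through its RefSeq symbol Grrp1. Windows of 4 genes on which the results turn are printed 5′ to 3′ on the strand of the gene: *Kdr* and *Cldn5*, which had the highest rhythm amplitudes, *Flt1*, which peaked at the other side of the cycle, and *Fam110d*, which differed between KPC and control mice. They lie at chr5:75978406-75978705 (minus strand, *Kdr*), chr5:147725962-147726261 (minus strand, *Flt1*), chr16:18776597-18776896 (plus strand, *Cldn5*) and chr4:134254057-134254356 (minus strand, *Fam110d*). Capitals mark a match, on either strand, to a motif searched, here the ETS core (CCGGAA or TTCCGG) or the GATA core (AGATAA or TTATCT).
Kdr: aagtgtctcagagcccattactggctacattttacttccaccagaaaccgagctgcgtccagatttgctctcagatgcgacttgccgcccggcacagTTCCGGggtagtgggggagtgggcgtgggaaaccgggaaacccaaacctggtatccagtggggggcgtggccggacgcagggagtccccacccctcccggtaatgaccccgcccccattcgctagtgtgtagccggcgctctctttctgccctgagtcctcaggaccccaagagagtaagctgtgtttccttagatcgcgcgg
Flt1: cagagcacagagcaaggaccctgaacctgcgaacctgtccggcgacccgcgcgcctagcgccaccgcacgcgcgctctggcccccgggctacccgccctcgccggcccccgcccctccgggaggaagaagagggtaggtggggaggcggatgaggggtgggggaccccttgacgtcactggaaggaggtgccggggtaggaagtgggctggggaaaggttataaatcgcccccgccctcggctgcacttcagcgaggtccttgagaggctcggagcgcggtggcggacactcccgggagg
Cldn5: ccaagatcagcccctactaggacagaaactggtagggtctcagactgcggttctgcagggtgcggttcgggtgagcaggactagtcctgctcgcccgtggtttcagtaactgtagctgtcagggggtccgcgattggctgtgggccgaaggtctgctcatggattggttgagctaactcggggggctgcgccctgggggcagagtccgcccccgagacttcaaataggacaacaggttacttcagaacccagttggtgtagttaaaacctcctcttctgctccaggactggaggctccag
Fam110d: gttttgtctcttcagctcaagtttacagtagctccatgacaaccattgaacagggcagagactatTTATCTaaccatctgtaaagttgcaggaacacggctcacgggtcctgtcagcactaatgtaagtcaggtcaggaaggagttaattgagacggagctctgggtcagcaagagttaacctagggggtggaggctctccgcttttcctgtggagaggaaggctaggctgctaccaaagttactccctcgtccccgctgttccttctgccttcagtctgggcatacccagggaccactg
The ETS core was found in the window of *Kdr* alone among the 7 genes, 153 bases before the start, and in 14.9% of all 32851 RefSeq promoter windows. The GATA core was found in *Fam110d*, 185 bases before the start, and in *Tek*, 36 bases after it, and in 11.2% of all windows. The E-box CACGTG, to which clock factors bind, was in 7.15% of all windows and the forkhead motif GTAAACA (or TGTTTAC) in 3.65%, and 0 of the 7 genes held either. These are matches of letters in short windows and do not show binding.

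*Egfl7* also hosts a microRNA of endothelial cells, and its mature 3p strand is shown because it is made from the *Egfl7* transcript; the seed, bases 2 to 8, is in capitals. The strand lies at chr2:26591402-26591423 on the plus strand of GRCm38.p6.
mmu-miR-126a-3p: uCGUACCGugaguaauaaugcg
The hairpin gene Mir126a lies within *Egfl7* on the same strand. Poly-A selected RNA-sequencing did not measure the mature microRNA, and no value is given for it.

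The libraries held from 14480867 to 20787784 reads assigned to genes, with a median of 16602091.5. Muscle fiber genes dominated each arm, as in the creatine kinase gene *Ckm*, with a median of 3390 to 3460 FPKM (reads scaled by the authors to gene length and library depth) in WT arms and 3240 to 3300 FPKM in FoxP1SkmKO arms. *Foxp1* itself was low and its arms overlapped, with medians of 0.615 and 0.636 FPKM in WT control and WT KPC mice and 0.585 and 0.531 FPKM in FoxP1SkmKO control and FoxP1SkmKO KPC mice. FoxP1SkmKO minus WT came to −0.11 log2 in control mice (adjusted p = 0.459, edgeR) and −0.20 log2 in KPC mice (adjusted p = 0.246). *Foxp1* in whole muscle thus did not separate the genotypes, and directions given for FoxP1SkmKO rest on the labels. The WT control libraries of CT26 stood apart in several of the 10 genes. Some results are given with and without them or without CT26. These are the shared rhythm of the 10 genes, their rhythm in WT control mice, the WT KPC calls of *Fam110d* and *Kdr*, and the averaged contrasts of *Flt1* that use them. Calls of genes in the other lists are given with them only.

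All 10 genes were detected in 48 of 48 libraries. Among the 4 junction genes, *Cdh5*, which encodes VE-cadherin (ENSMUSG00000031871, mm39 chr8:104828257-104871143, plus strand), had the highest FPKM of the 10 in 48 of 48 libraries, from 19 to 33.2 FPKM with a median of 26. *Pecam1*, which encodes the contact adhesion molecule CD31 (ENSMUSG00000020717, chr11:106545043-106641454, minus strand), ranged from 9.64 to 16.5 FPKM with a median of 13.3. *Esam*, an adhesion molecule of endothelial tight junctions (ENSMUSG00000001946, chr9:37439374-37449615, plus strand), ranged from 10.1 to 17.3 FPKM with a median of 12.3. *Cldn5*, the claudin-5 gene (ENSMUSG00000041378, chr16:18595597-18597012, plus strand), had the broadest range of these 4 in FPKM, from 5.39 to 25.1 with a median of 11.8.

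Among the receptors, *Tie1*, a partner receptor of TIE2 (ENSMUSG00000033191, chr4:118328388-118347258, minus strand), ranged from 8.88 to 15.1 FPKM with a median of 12.3. *Kdr*, the VEGFR2 gene (ENSMUSG00000062960, chr5:76093487-76139118, minus strand), ranged from 5.02 to 11.9 FPKM with a median of 8.01, and *Flt1*, the gene of VEGFR1, which binds VEGF-A but signals weakly and also has a soluble form (ENSMUSG00000029648, chr5:147498414-147662821, minus strand), from 4.82 to 11.3 FPKM with a median of 7.44. *Tek*, the TIE2 gene (ENSMUSG00000006386, chr4:94627526-94763213, plus strand), was lower, from 3.97 to 6.22 FPKM with a median of 5.13. The ranges of the 3 genes overlapped, and *Kdr* and *Flt1* exchanged places in FPKM over the day.

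*Egfl7*, which encodes a secreted matrix protein of endothelial cells (ENSMUSG00000026921, chr2:26470026-26483132, plus strand), ranged from 10.1 to 21.7 FPKM with a median of 13.7. The 3′ end of *Egfl7* overlaps *Agpat2* on the other strand, which had a median of 2.25 FPKM; whether the counting used strand is not given in the sources used here, and reads in the overlap may belong to either gene. *Fam110d* (ENSMUSG00000050105, chr4:133978421-133981417, minus strand), whose product is little characterised, had the lowest FPKM of the 10 in 35 of 48 libraries, from 1.16 to 9.97 with a median of 3.47. It rested on few reads, 25 to 250 per library with a median of 77.5. By median FPKM *Egfl7*, *Pecam1*, *Tie1*, *Esam* and *Cldn5* lay between *Cdh5* and *Kdr*, with ranges that overlapped each other, and only *Cdh5* kept its place in every library.

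The SD between the 2 mice of a group was lowest for *Cdh5*, at 0.117 log2, and was 0.256 log2 for *Cldn5*. It was highest for *Fam110d*, at 0.539 log2, or 45.3% of the level. Of the 24 group means, the highest of *Cldn5*, *Egfl7* and *Tie1* was that of WT control mice at CT26, while the lowest of *Flt1* was in the same group. The sum of the 10 genes, in FPKM, had medians of 115 in WT control, 118 in WT KPC, 110 in FoxP1SkmKO control and 109 in FoxP1SkmKO KPC mice, and its ranges, from 85.1 to 141 over all arms, overlapped. In whole muscle, fewer endothelial cells and less RNA per endothelial cell cannot be told apart.

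**Figure D1:**
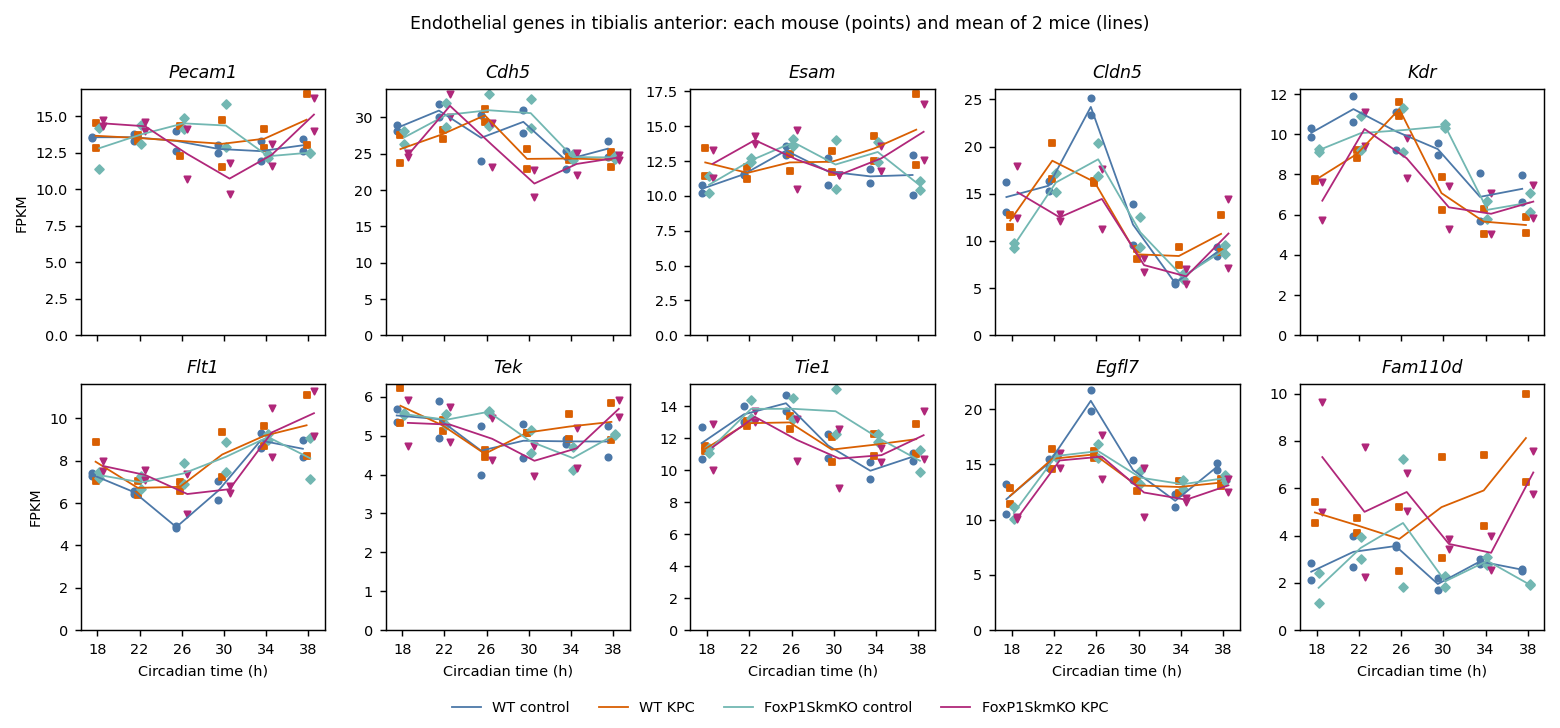
FPKM of the 10 capillary endothelial genes (one panel each) against circadian time in hours. Each point is 1 mouse, lines join the means of 2 mice, and colours mark the 4 arms; Kdr and Cldn5 are high at CT22 and CT26, Flt1 at CT34 and CT38, and within each genotype the mean of Fam110d in KPC mice lies above that in control mice at 6 of 6 times.

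The first comparison asked which of the 10 genes varied with the time of day in muscle across the 4 arms. A rhythm of 24 h passed the test in 7 of the 10: both VEGF receptors, both TIE receptors, the junction genes *Cldn5* and *Cdh5*, and *Egfl7*. *Pecam1*, *Esam* and *Fam110d* did not pass. Of all genes tested, at any read level, 34.9% passed the same test, and 7 of 10 is above this share. Of the 122 tested genes of other endothelial lists 52.5% passed, and of the 12 capillary-enriched genes among them 66.7%. A share among genes of like read count is not given here, and the 10 genes were chosen with earlier results known. The test fitted a cosine and a sine of 24 h to the counts of the 48 libraries beside a mean for each arm, in edgeR, and was called at an adjusted p under 0.05; amplitude is the distance in log2 from the mean of the curve to its peak. The median amplitude was 0.2 over the 7 genes and 0.16 over the 5455 genes called.

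*Kdr* was high before and around the former lights-on and low 12 h later. Over the 8 libraries of each time its lowest, median and highest FPKM were 8.83, 10 and 11.9 at CT22 and 7.8, 10.4 and 11.6 at CT26, against 5.02, 6.03 and 8.06 at CT34 and 5.09, 6.37 and 7.96 at CT38. At CT22 every library lay above every library of CT34 and CT38; between them, CT18 had a median of 8.45 and CT30 of 8.42. The fitted rhythm had an amplitude of 0.39 log2 and a peak 1.72 times the trough, at CT23.8 (adjusted p = 1.7e-10, edgeR).

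*Cldn5* had the highest amplitude of the 10 genes. Its lowest, median and highest FPKM were 12.1, 15.8 and 20.4 at CT22 and 11.3, 17.3 and 25.1 at CT26, and fell to 5.39, 6.23 and 9.36 at CT34. The 8 libraries of CT34 lay below the 16 libraries of CT22 and CT26. The amplitude was 0.64 log2, the peak was 2.43 times the trough, and it fell at CT22.9 (adjusted p = 7.1e-10, edgeR).

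*Flt1* ran the other way. Its lowest, median and highest FPKM were 6.39, 6.86 and 7.55 at CT22 and 4.82, 6.73 and 7.89 at CT26, against 8.16, 9.12 and 10.5 at CT34 and 7.14, 9.02 and 11.3 at CT38. Every library of CT34 lay above every library of CT22 and CT26, while CT38 overlapped with both. The amplitude was 0.27 log2, a peak 1.46 times the trough, at CT36.4 (adjusted p = 2.3e-08, edgeR).

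The 4 other rhythmic genes had lower amplitudes. *Egfl7* had a median of 10.8 FPKM at CT18, 15.6 at CT22, 16.5 at CT26 and 12.4 at CT34, and an amplitude of 0.20 log2 with its peak at CT25.8 (adjusted p = 1.4e-04, edgeR). *Cdh5* had lowest, median and highest FPKM of 27.1, 30 and 33.2 at CT22 and of 22.1, 24.4 and 25.4 at CT34, which did not overlap. Its CT26 range of 23.2 to 33.2 FPKM did overlap with CT34. The amplitude of *Cdh5* was 0.16 log2 with its peak at CT23.5 (adjusted p = 3.0e-05, edgeR). *Tie1* had 12.8, 13.2 and 14.4 FPKM at CT22 and 9.45, 11.1 and 12.3 at CT34, also without overlap. Its CT26 range of 10.6 to 14.7 FPKM overlapped with CT34. The amplitude of *Tie1* was 0.14 log2 with its peak at CT24.3 (adjusted p = 8.1e-04, edgeR). *Tek* peaked earlier, at CT18.7, with an amplitude of 0.11 log2 (adjusted p = 0.00771, edgeR). Its CT18 range of 4.74 to 6.22 FPKM overlapped with its CT34 range of 4.13 to 5.55. With the 6 times as separate levels in place of a sinusoid its adjusted p was 0.0591 (edgeR). The times set against each other, here and for *Kdr*, *Cldn5* and *Flt1*, were chosen with the values known. The share of all genes without such overlap is not given here.

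The amplitudes of the 3 genes that did not pass were 0.06 log2 for *Pecam1* (adjusted p = 0.21, edgeR), 0.03 for *Esam* (0.73) and 0.12 for *Fam110d* (0.662). *Pecam1* and *Esam* had median FPKM between 12.6 and 14 and between 11.3 and 13.3 at the 6 times. Of the 7 rhythmic genes 5, *Kdr*, *Cldn5*, *Cdh5*, *Tie1* and *Egfl7*, peaked between CT22 and CT28, a window chosen with these peaks known, and 25.8% of the 5455 rhythmic genes of the whole table peaked there. Without the 2 WT control libraries of CT26 the same 7 genes were called, with amplitudes of 0.60 for *Cldn5*, 0.40 for *Kdr*, 0.25 for *Flt1*, 0.17 for *Cdh5*, 0.16 for *Egfl7*, 0.13 for *Tie1* and 0.11 for *Tek*.

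**Figure D2:**
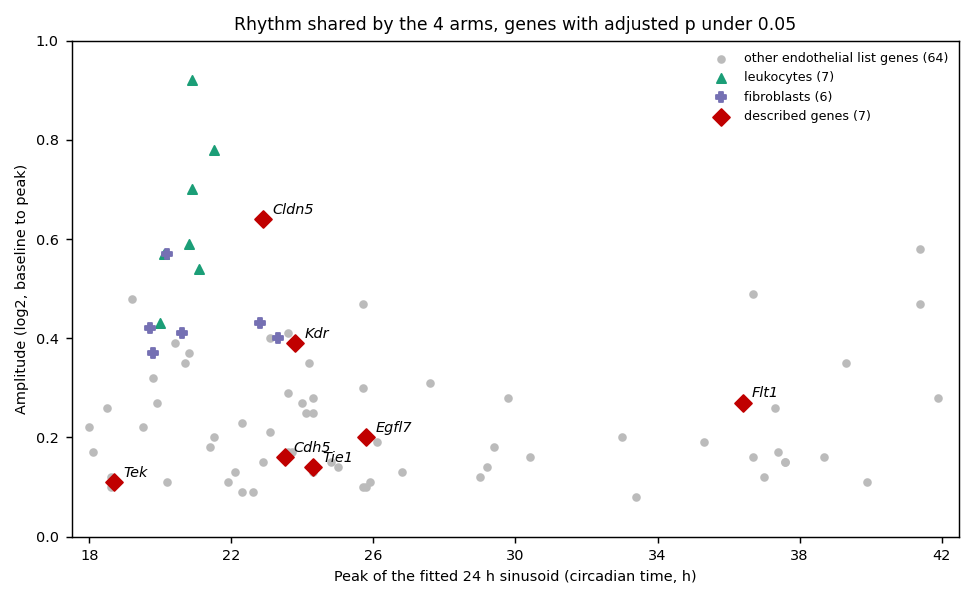
Amplitude in log2 of the 24 h rhythm shared by the 4 arms against its peak in circadian time (hours), for genes called at an adjusted p under 0.05. Red diamonds are the 7 rhythmic capillary genes, grey points 64 other endothelial genes, green points 7 leukocyte genes and purple points 6 fibroblast genes; Flt1 alone of the diamonds lies near CT36.

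Because the 2 VEGF receptors peaked on different sides of the cycle, their order in FPKM changed over the day. The ratio of *Kdr* to *Flt1* FPKM, which compares 2 levels per length within a library, had a lowest, median and highest value of 1.25, 1.51 and 1.85 at CT22 and of 1.15, 1.6 and 2.26 at CT26. At CT34 it was 0.476, 0.657 and 0.866, and at CT38 it was 0.46, 0.796 and 0.889. *Kdr* was above *Flt1* in 8 of 8 libraries at CT22 and at CT26, in 6 of 8 at CT18 and at CT30, and in 0 of 8 at CT34 and at CT38. By arm the median ratio was 1.37 in WT control, 0.977 in WT KPC, 1.2 in FoxP1SkmKO control and 0.942 in FoxP1SkmKO KPC mice, with ranges from 0.46 to 2.26 that overlapped. Whether the ratio lies above 1 depends on the gene lengths used for FPKM, 9030 bases for *Kdr* and 13504 for *Flt1*. In reads the median over all libraries was 1318 for *Kdr* and 1820 for *Flt1*. The change of the ratio over the day does not depend on these lengths, while the order of the 2 genes does. The ratio is given as a description, without a test.

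**Figure D3:**
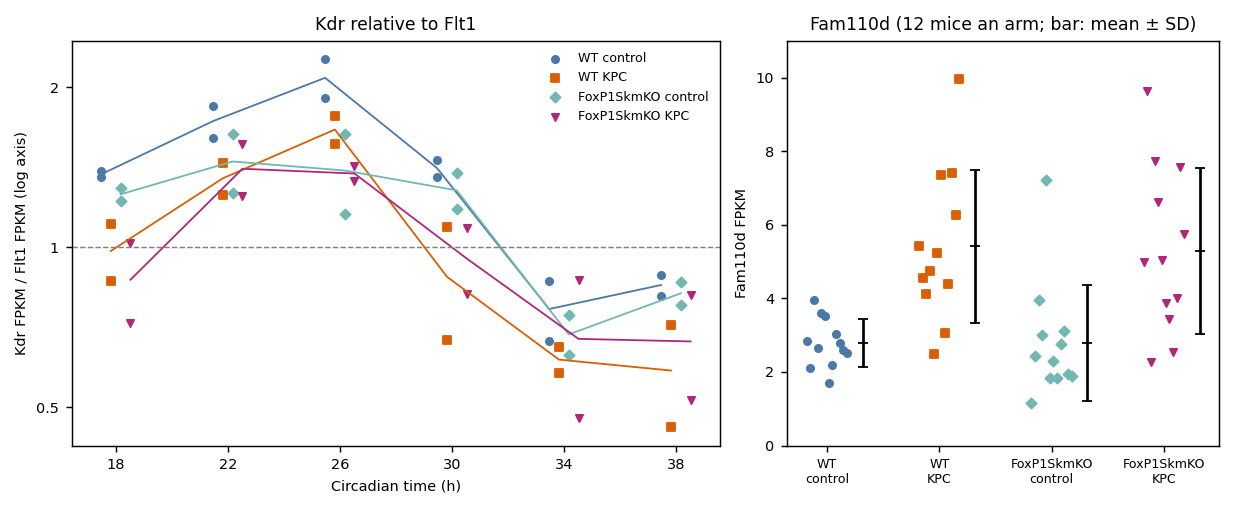
Left, the ratio of Kdr to Flt1 FPKM on a log axis against circadian time in hours, 1 point per mouse; the 8 libraries of CT22 and of CT26 lie above 1 and those of CT34 and CT38 below 1. Right, Fam110d FPKM of each mouse in the 4 arms with mean and SD; 10 of 12 WT KPC mice lie above the highest WT control mouse, and 3 of 12 FoxP1SkmKO KPC mice above the highest FoxP1SkmKO control mouse.

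The second comparison asked how the pancreatic tumor altered these genes in WT muscle, as the mean difference between KPC and control mice over the 6 times. *Fam110d* rose and *Kdr* fell, and the other 8 genes did not pass. The 2 genes called of 10, a set chosen with earlier results known, stand beside 1.79% of all genes tested, 182 of which rose and 98 of which fell. The median effect of all genes was 0.0016 log2. By role, 0 of 4 junction genes, 1 of 4 receptors and 1 of the other 2 genes passed.

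*Fam110d* was 1.92-fold higher in WT KPC than in WT control muscle. In control mice the 2 FPKM values were 2.83 and 2.11 at CT18, 3.96 and 2.66 at CT22, 3.6 and 3.51 at CT26, 1.7 and 2.2 at CT30, 3.02 and 2.79 at CT34, and 2.59 and 2.52 at CT38. In KPC mice they were 5.41 and 4.54 at CT18, 4.12 and 4.74 at CT22, 2.49 and 5.22 at CT26, 7.34 and 3.06 at CT30, 4.4 and 7.41 at CT34, and 6.27 and 9.97 at CT38. In all, 10 of the 12 KPC libraries lay above the highest control library, and the exceptions were 1 mouse at CT26 and 1 at CT30. Without CT26 the mean difference was 1.11 log2 (adjusted p = 0.00638, edgeR). Over all 6 times it was 0.94 ± 0.20 log2 (SE, 95% interval of the fold 1.45 to 2.54, adjusted p = 0.0117, edgeR), with KPC higher at 6 of 6 times, as in 3.36% of all genes. The adjusted p stayed between 0.00322 and 0.0473 when each of the 48 libraries was left out in turn; it was 0.0537 without CT30 (0.84 log2) and 0.0545 without CT38 (0.80 log2).

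*Kdr* was 0.827 times its control level in WT KPC muscle. Its lowest, median and highest FPKM were 5.71, 9.38 and 11.9 in control and 5.04, 7.71 and 11.6 in KPC mice. The ranges overlapped over the day, and 2 of 12 KPC libraries lay above the control median. The mean difference was −0.27 ± 0.07 log2 (SE; 95% interval of the fold 0.747 to 0.916; adjusted p = 0.0412, edgeR), with KPC higher at 1 of 6 times. This call was close to the threshold: over the 48 fits that leave out 1 library its adjusted p ran from 0.025 to 0.109. It missed the threshold in 15 of them, without WT control replicates 1 and 2 of CT18 and of CT30 and replicate 2 of CT22, CT26, CT34 and CT38, and without WT KPC replicates 1 and 2 of CT18, replicate 1 of CT22 and CT30 and replicate 2 of CT26, CT34 and CT38. The call was also lost with limma and when 5 of the 6 times were left out singly, with an adjusted p of 0.103 without CT18, 0.0835 without CT22, 0.122 without CT30, 0.08 without CT34 and 0.105 without CT38 (−0.25 to −0.27 log2). Without CT26 alone it was kept, at −0.36 log2 (adjusted p = 0.0188).

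*Flt1* had the next smallest p among the WT members. Its median was 7.16 FPKM in control and 7.73 FPKM in KPC mice, and the difference of 0.20 ± 0.06 log2 (SE) had an adjusted p of 0.0875 (edgeR), with KPC higher at 6 of 6 times. It passed without WT KPC replicate 2 of CT30 or without WT KPC replicate 1 of CT38, down to an adjusted p of 0.032, and came to 0.14 log2 (adjusted p = 0.384) without CT26, the time at which its 2 control libraries were the lowest of the 48. The values of the others were *Esam* 0.14 ± 0.06 (adjusted p = 0.293), *Cdh5* −0.09 ± 0.05 (0.375), *Egfl7* −0.08 (0.501), *Pecam1* 0.05 ± 0.05 (0.693), *Tek* 0.05 (0.74), *Cldn5* −0.03 ± 0.09 (0.921) and *Tie1* 0.01 (0.942), all in log2 with SE where given.

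**Figure D4:**
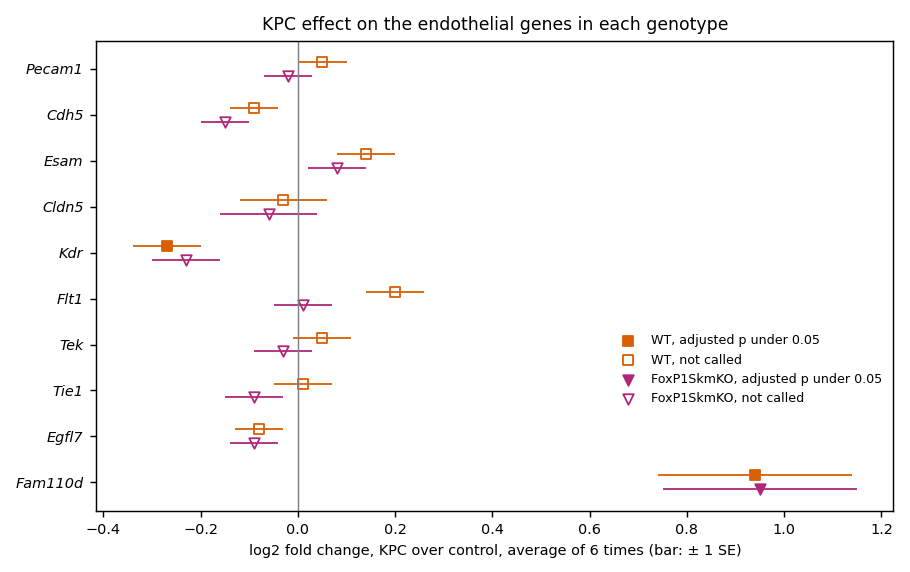
Mean difference between KPC and control mice over 6 times, in log2 with 1 SE, for each of the 10 genes in WT and FoxP1SkmKO mice. Filled points passed at an adjusted p under 0.05; Fam110d lies near 0.94 in both genotypes and Kdr at −0.27 and −0.23, and the other genes lie between −0.15 and 0.20.

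The third comparison asked the same in FoxP1SkmKO muscle, and whether the genotypes differed in it. *Fam110d* rose here too and was the 1 gene of 10 called, beside 0.428% of all genes tested, 21 of which rose and 46 of which fell. In FoxP1SkmKO control mice the 2 FPKM values of *Fam110d* were 1.16 and 2.42 at CT18, 3.95 and 3.01 at CT22, 7.22 and 1.84 at CT26, 2.29 and 1.84 at CT30, 2.75 and 3.11 at CT34, and 1.95 and 1.9 at CT38. In FoxP1SkmKO KPC mice they were 4.99 and 9.64, 2.26 and 7.74, 6.63 and 5.05, 3.86 and 3.43, 2.54 and 4, and 7.57 and 5.76 at the same times. A single control mouse, at CT26, was high at 7.22 FPKM, so that 3 of 12 KPC libraries lay above the highest control library and 8 of 12 above the second highest. The mean difference was 0.95 ± 0.20 log2 (SE), 1.93-fold (95% interval 1.46 to 2.56; adjusted p = 0.0224, edgeR), with KPC higher at 6 of 6 times, as in 2.56% of all genes.

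The FoxP1SkmKO call of *Fam110d* was less stable than that of WT, although effect, SE and unadjusted p (4.2e-05 in each, edgeR) were alike. The adjusted p depends also on the other genes tested, and 67 genes were called in FoxP1SkmKO against 280 in WT mice. The FoxP1SkmKO call was lost with limma. The adjusted p rose to as much as 0.108 without FoxP1SkmKO control replicate 2 of CT22, or without FoxP1SkmKO KPC replicate 2 of CT18, CT22 or CT34 or replicate 1 of CT38. It was 0.254 without CT18 (0.73 log2), 0.0647 without CT30 (0.97 log2) and 0.127 without CT38 (0.78 log2). The KPC effect on *Fam110d* in WT minus that in FoxP1SkmKO was −0.01 ± 0.28 log2, a ratio of the folds of 0.994 with a 95% interval of 0.671 to 1.47 (adjusted p = 1, edgeR).

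*Kdr* had lowest, median and highest FPKM of 5.79, 9.17 and 11.3 in FoxP1SkmKO control and 5.02, 7.45 and 11.1 in FoxP1SkmKO KPC mice. The ranges overlapped, 3 of 12 KPC libraries lay above the control median, and the difference was −0.23 ± 0.07 log2 (0.852-fold, 95% interval 0.769 to 0.944), which did not pass (adjusted p = 0.135, edgeR). *Cdh5* had a median of 28.4 FPKM in control and 24.6 FPKM in KPC mice and a difference of −0.15 ± 0.05 log2 (adjusted p = 0.112). The others were *Tie1* −0.09 (adjusted p = 0.573), *Egfl7* −0.09 (0.507), *Esam* 0.08 (0.645), *Cldn5* −0.06 (0.865), *Tek* −0.03, *Pecam1* −0.02 (0.924) and *Flt1* 0.01 ± 0.06 (0.991).

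The difference between the genotypes in the KPC effect was called in 0 of the 10 genes and in 0% of all genes tested with edgeR, of which 1020 had an unadjusted p under 0.05. *Flt1* had the smallest p of the 10, a difference of 0.19 ± 0.08 log2 (ratio of the folds 1.14, 95% interval 1.01 to 1.29, adjusted p = 0.764). Without CT26 it was 0.09 log2 (adjusted p = 0.991). For *Kdr* it was −0.04 ± 0.10 log2, a ratio of 0.971 with a 95% interval of 0.841 to 1.12 (adjusted p = 0.967).

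At single times, with 2 mice against 2, the calls lay at CT26 in WT mice, where 7.17% of all genes were called. There *Flt1* rose, with 4.82 and 4.91 FPKM in control and 6.56 and 6.97 FPKM in KPC mice, a difference of 0.47 ± 0.15 log2 (1.39-fold, adjusted p = 0.0483, edgeR). *Egfl7* fell, with 21.7 and 19.8 FPKM in control and 16.2 and 15.6 FPKM in KPC mice, a difference of −0.39 ± 0.12 log2 (0.763-fold, adjusted p = 0.0441). *Cldn5* had 23.3 and 25.1 FPKM in control and 16.1 and 16.4 FPKM in KPC mice, and −0.58 ± 0.22 log2 did not pass (adjusted p = 0.105). In all 3 genes the groups did not overlap, which 2 values against 2 often do without a difference. The share of all genes without overlap is not given here. The 2 WT control libraries of CT26 were the extremes of the 48 libraries: the lowest for *Flt1* and the highest for *Egfl7* and *Cldn5*. The call of *Flt1* was lost in 29 of the 48 fits that leave out 1 library, in most of them by a narrow margin, and reached 0.327 without WT control replicate 1 of CT26. The call of *Egfl7* was lost in 5, without either library of either CT26 group or without FoxP1SkmKO control replicate 1 of CT22, with an adjusted p of up to 0.38.

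At the other 11 combinations of genotype and time 0.00872% of the tests over all genes were called, 15 of 172007, and 0 of the 110 tests of the 10 genes. Some single differences were of size without passing. *Fam110d* was 4.14-fold higher in FoxP1SkmKO KPC mice at CT18 (2.05 ± 0.50 log2, adjusted p = 0.0803, edgeR) and 3.17-fold higher in WT KPC mice at CT38 (1.67 ± 0.48 log2, adjusted p = 0.234). In FoxP1SkmKO mice at CT30, *Cdh5* had 28.6 and 32.6 FPKM in control and 22.8 and 19 FPKM in KPC mice (−0.54 ± 0.11 log2, adjusted p = 0.0778), and *Kdr* had 10.3 and 10.5 against 7.42 and 5.31 FPKM (−0.70 log2, adjusted p = 0.231). The 2 groups did not overlap in either gene, but with 2 mice in each this carries little weight, and the share of all genes is not given.

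The genotype itself, in the absence or presence of a tumor, was called in 0 of the 10 genes. In control mice 3.44% of all genes differed between FoxP1SkmKO and WT, and the 10 genes ran from −0.15 log2 (*Cldn5*) to 0.16 ± 0.06 log2 (*Flt1*, adjusted p = 0.149, edgeR). Without CT26, the time of the 2 lowest *Flt1* libraries, the *Flt1* value was 0.07 log2 (adjusted p = 0.734). In KPC mice 0.32% of all genes differed, and the 10 genes ran from −0.18 ± 0.10 log2 (*Cldn5*, adjusted p = 0.51) to 0.01 log2 (*Esam*).

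Within single arms, the way the study called rhythms was followed. A sinusoid of 24 h was fitted to the FPKM of 12 mice and called at an unadjusted p under 0.01, with amplitudes in FPKM. In WT control mice 4 of the 10 genes were called, beside 4.92% of all genes and 10.5% of genes with a mean of at least 1 FPKM: *Kdr* (amplitude 2.15 ± 0.399 FPKM, SE, peak CT23.1), *Flt1* (1.83 ± 0.251, CT37), *Tie1* (1.97 ± 0.355, CT23.8) and *Cldn5* (7.4 ± 1.41, CT23.9). *Flt1* alone of these passed after adjustment over all genes (adjusted p = 0.0424 for the F test over 12 libraries, a model fitted to every gene). Without both CT26 libraries *Tie1* was lost and *Cdh5* was gained.

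In WT KPC mice 2 of the 10 were called, *Kdr* (2.64 ± 0.395 FPKM, CT24.3) and *Cldn5* (4.91 ± 0.906, CT22.4), beside 4.22% of all genes and 8.84% of those with a mean of at least 1 FPKM. In FoxP1SkmKO control mice 5 were called, *Cdh5* (3.75 ± 0.779 FPKM, CT25.3), *Kdr* (2.17 ± 0.465, CT24.6), *Tek* (0.542 ± 0.119, CT21.8), *Tie1* (1.81 ± 0.389, CT26.4) and *Cldn5* (5.66 ± 0.894, CT24.3), beside 4.07% and 9.19%. In FoxP1SkmKO KPC mice *Flt1* was called (1.81 ± 0.444 FPKM, CT37.4), beside 2.63% and 5.64%, while the amplitude of *Kdr* there was 1.9 ± 0.572 FPKM and that of *Cldn5* 4.15 ± 1.32 FPKM. With a replicate block *Flt1* was lost in this arm and *Pecam1* was called in its place. Leaving out 1 library moved the number called between 2 and 7 in FoxP1SkmKO control mice, with 2 left without replicate 2 of CT26 and 3 without replicate 1 of CT34 or replicate 2 of CT38, and between 0 and 2 in FoxP1SkmKO KPC mice. In the latter, *Flt1* was lost without replicate 2 of CT18, CT26, CT30 or CT34, either replicate of CT22 or CT38, or replicate 1 of CT30.

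A call in 1 arm and not in another does not show that the arms differ, and the difference in rhythm between KPC and control was tested itself. It was called in 0 of the 10 genes in WT mice, beside 0% of all genes with edgeR, of which 1337 had an unadjusted p under 0.05. In FoxP1SkmKO mice it was called in 0 of the 10 beside 0.0512% of all genes, of which 1461 had an unadjusted p under 0.05. *Pecam1* came nearest, in FoxP1SkmKO mice, with an amplitude of 0.13 log2 and a peak at CT26.1 in control and of 0.22 log2 and CT41.6 in KPC mice (adjusted p = 0.0711, edgeR).

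The other genes of endothelial pathways, 126 in lists written with earlier results of these data known, of which 122 were tested, gave the setting of the 10. In these, 5 rose and 4 fell in WT KPC mice, or 7.38% beside 1.79% of all genes, with a median effect of −0.03 log2. In FoxP1SkmKO KPC mice 1 rose and 9 fell, or 8.2% beside 0.428% of all genes, with a median of −0.06 log2. The median over all genes was 0.0016 log2 in WT and 0.0048 log2 in FoxP1SkmKO mice. The genotype difference in the KPC effect was called in 0 of the 122, so a call in 1 genotype alone does not show that the genotypes differ. A shared rhythm was called in 64 of 122, or 52.5% beside 34.9% of all genes, and 27 of the 64 peaked between CT22 and CT28. FoxP1SkmKO minus WT was called in 6 in control mice, 3 in each direction, or 4.92% beside 3.44% of all genes. In KPC mice it was called in 0, beside 0.32% of all genes. Counts of the single lists below stand beside the same shares of all genes.

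Of 10 ligand genes of the VEGF, angiopoietin and apelin families, the first 2 of which include ligands of the receptors above, 8 were tested. With the tumor 0 were called in either genotype, with median effects of −0.02 log2 in WT and −0.10 log2 in FoxP1SkmKO mice. A rhythm was called in 5 of the 8. *Vegfa*, the main ligand of both VEGF receptors, ranged from 64.6 to 93.6 FPKM with a median of 80.1 and had an amplitude of 0.09 log2 with its peak at CT22.3 (adjusted p = 0.0126, edgeR), and *Angpt1*, the ligand that activates TIE2, had an amplitude of 0.28 log2 with its peak at CT29.8 (adjusted p = 6.6e-08). *Vegfb* (0.11 log2, CT21.9), *Vegfd* (0.19 log2, CT35.3) and *Apln* (0.31 log2, CT27.6) were the others. The peak of *Vegfa* thus lay near that of *Kdr* and away from that of *Flt1*.

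Among the 12 co-receptors and modulators, *Aplnr*, the apelin receptor, fell in KPC mice of both genotypes (WT −0.47 log2, adjusted p = 0.00478, edgeR; FoxP1SkmKO −0.42 log2, adjusted p = 0.0266). A rhythm was called in 6 of the 12, among them *Plxnd1*, a semaphorin receptor (amplitude 0.25 log2, peak CT24.1). Of the 12 Notch pathway genes 0 were called with the tumor and 9 were rhythmic. Of 19 endothelial transcription factors tested, *Ets1* fell in both genotypes (−0.28 log2, adjusted p = 0.0348, and −0.31 log2, adjusted p = 0.039), *Sox7* fell in FoxP1SkmKO mice (−0.36 log2, adjusted p = 0.0498), and 9 were rhythmic, among them *Ets1* (amplitude 0.27 log2, peak CT24) and *Sox18* (0.37 log2, CT20.8). *Sox7* had a like value in WT mice without passing (−0.30 log2, adjusted p = 0.0685, edgeR). In control mice *Klf2*, a transcription factor induced by flow in endothelium, was 1.64-fold higher in FoxP1SkmKO than in WT (0.71 ± 0.11 log2, adjusted p = 2.0e-04), *Klf4* differed by 0.57 log2 (adjusted p = 0.00203) and *Sox18* by −0.32 log2 (adjusted p = 0.0372). The other 3 list genes called there were *Itgb1* (−0.13 log2, adjusted p = 0.0239), *Ehd4* (0.26 log2, adjusted p = 0.0245) and *Rgcc* (−0.28 log2, adjusted p = 0.0346). In KPC mice the smallest p belonged to *Ccl21a* (−0.64 log2, adjusted p = 0.0712) and *Klf2* (0.33 log2, adjusted p = 0.19), and in the difference of the KPC effect between genotypes to *Klf2* (0.38 log2) and *Klf4* (0.36 log2), each with an adjusted p of 0.764.

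Of 41 other pan-endothelial genes tested, 3 rose in WT KPC mice, *Plvap* (0.46 ± 0.08 log2, adjusted p = 0.00159, edgeR), which forms the diaphragms of fenestrae, *Vwf* (0.36 log2, adjusted p = 0.00242), the von Willebrand factor gene, and *S1pr1* (0.33 log2, adjusted p = 0.0141), a sphingosine-1-phosphate receptor, and *Myct1* fell. In FoxP1SkmKO KPC mice 5 of the 41 fell: the caveolar genes *Cavin2* (−0.32 log2, adjusted p = 0.00161) and *Cav1* (−0.21 log2, adjusted p = 0.0338), *Myct1* (−0.36 log2, adjusted p = 0.00741), *Cd93* (−0.27 log2, adjusted p = 0.0162) and the protocadherin gene *Pcdh12* (−0.38 log2, adjusted p = 0.0307). In WT mice these 5 were also negative, with *Cavin2* at −0.17, *Cav1* at −0.15, *Myct1* at −0.23, *Cd93* at −0.11 and *Pcdh12* at −0.29 log2. In FoxP1SkmKO mice *Plvap* (0.28 log2), *Vwf* (0.16) and *S1pr1* (0.18) were positive without passing. The genotype difference in the KPC effect was called in 0 of the 41. A rhythm was called in 21 of the 41, with *Eng*, a co-receptor of the TGF-beta family (amplitude 0.27 log2, peak CT19.9), *Pcdh12* (0.40 log2, CT23.1), *Adgrf5* (0.26 log2, CT37.3) and *Stab1* (0.21 log2, CT23.1) at the smallest p. Of 9 venous genes 3 rose in WT KPC mice, *Selp*, the P-selectin gene (0.98 ± 0.19 log2, adjusted p = 0.00563), *Vwf* and *Lrg1* (0.43 log2, adjusted p = 0.037), *Lrg1* rose in FoxP1SkmKO KPC mice (0.48 log2, adjusted p = 0.0392), and 0 of 9 were rhythmic. Of 12 capillary-enriched genes *Aplnr* was called with the tumor in both genotypes and 8 were rhythmic, of 11 arterial genes 0 were called with the tumor and 5 were rhythmic, and of 7 lymphatic genes *Reln* fell in both genotypes (−0.62 log2, adjusted p = 0.0243, and −0.63 log2, adjusted p = 0.0435) and 4 were rhythmic.

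Markers of other cells moved with time and with the tumor, and their part in the results above was not tested. Leukocyte markers were rhythmic in 7 of 9 genes tested, with peaks between CT20 and CT21.5, and their summed FPKM over 8 libraries had a lowest, median and highest value of 21.8, 31.1 and 47.5 at CT22 and of 10.8, 14.2 and 21.4 at CT34. Fibroblast markers were rhythmic in 6 of 7, with median sums of 71.7 FPKM at CT18 and 30.4 FPKM at CT34. The summed FPKM of the 10 endothelial genes, which does not measure capillary content, had medians of 110 at CT18, 129 at CT22, 132 at CT26, 111 at CT30, 105 at CT34 and 109 at CT38. At CT26, when the median sum of the 10 was highest, the median leukocyte sum was 27.4 FPKM, against 29.6 at CT18. The median red blood cell sum was 206 FPKM at CT26, against 228 at CT18 and 146 at CT34, and the median fibroblast sum at CT26 was 45.6 FPKM. *Flt1* was high at CT34 and CT38, when the leukocyte and fibroblast sums were low.

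With the tumor, 1 of 9 leukocyte markers, *Ptprc*, rose in WT KPC mice (0.80 log2, adjusted p = 0.0467, edgeR) and 0 in FoxP1SkmKO KPC mice, and *Col1a1* (−0.91 log2, adjusted p = 0.0188) and *Col3a1* (−0.71 log2, adjusted p = 0.0255) fell among the fibroblast markers in WT mice. In FoxP1SkmKO mice *Lum* fell among them (−0.79 log2, adjusted p = 0.023). The genotype difference in the KPC effect was called in 0 of the leukocyte and 0 of the fibroblast markers. The leukocyte sum had a lowest, median and highest value of 10.8, 21.6 and 35.8 FPKM in WT control, 14.9, 26.8 and 58.7 in WT KPC, 11.5, 23.7 and 53.7 in FoxP1SkmKO control and 11.2, 25 and 34.7 in FoxP1SkmKO KPC mice. The fibroblast sum had a lowest, median and highest value of 31.4, 59.8 and 87.8 FPKM in WT control and 20.7, 37 and 83.2 FPKM in WT KPC mice, and of 29.5, 54.9 and 76.7 FPKM in FoxP1SkmKO control and 24.5, 31.9 and 83 FPKM in FoxP1SkmKO KPC mice. All of these ranges overlapped. Of platelet markers, of interest because platelets also hold ESAM and CD31 protein, 3 of 6 were tested and 0 were called with the tumor, and their median sums ran from 2.13 to 2.94 FPKM over the 4 arms. Mural cell markers, from pericytes and smooth muscle cells around the vessels, were called with the tumor in 0 of 11 genes and were rhythmic in 6. Markers of red blood cells (5 genes), adipocytes (7), Schwann cells (5), satellite cells (5), muscle fibers (6) and slow and oxidative fibers (9) gave 0 calls with the tumor in either genotype, and a rhythm was called in 3, 0, 0, 1, 3 and 0 of them.

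Some of the 10 genes varied together among mice of the same group. With the 24 group means removed from log2 CPM (reads of a gene scaled to library size), *Pecam1* had a correlation of 0.80 with the mean of the other 9 genes over 48 libraries, *Tie1* 0.77, *Flt1* 0.73, *Cdh5* 0.56, *Tek* 0.56, *Esam* 0.55, *Egfl7* 0.50 and *Cldn5* 0.40, while *Fam110d* had 0.13 and *Kdr* −0.21. These 48 points come from 24 pairs of mice and share library depth and composition within a library. Of single pairs, *Cdh5* and *Tek* had 0.77 and *Cdh5* and *Pecam1* 0.72, whereas *Kdr* and *Fam110d* had −0.56 and *Kdr* and *Flt1* −0.16. The correlation of *Kdr* was 0.37 with *Egfl7* and 0.34 with *Cdh5*. With the remaining genes other than *Fam110d* it lay between −0.17 (*Esam*) and 0.06 (*Tek*). *Fam110d* had the highest SD between duplicate mice, 0.539 log2, and so weighs most in a mean of log2 values. The −0.21 of *Kdr* therefore does not show that it ran against the other genes, and a value without *Fam110d* is not given. The same weighting holds for the mean of the 10 used below.

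Of 15627 other genes, those most like the mean of the 10 within groups were *Shank3* (0.86), *Bcam* (0.83), *Mmrn2* (0.81), *Dock6* (0.80), *Sox17* (0.79), *Acss1* (0.79), *Eng* (0.78), *Ablim1* (0.77), *Aqp1* (0.77) and *Sema3g* (0.75). *Mmrn2*, *Sox17*, *Eng*, *Aqp1* and *Sema3g* are known from endothelial cells. Of the 50 genes most alike, 14 were in the endothelial lists, and the median correlation was 0.27 over the 122 list genes and −0.003 over all genes.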

How the data were processed

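Tibialis anterior from 48 mice was sequenced after poly-A selection. Per the submitters' processing notes, reads were aligned to mm39 with HISAT2 2.0.5 and compared with DESeq2 1.20.0, whereas the study's methods name STAR and HTSeq; which of them made the tables, and whether libraries were directional, is not given in the sources used here. The authors deposited raw read counts per gene in tables of single comparisons, and FPKM, scaled by the authors to gene length and library depth, in a table of all 48 libraries. The signal columns of the deposited comparison tables, counts that the authors divided by size factors, entered no test. Columns of fold changes and p-values in the deposited comparison tables hold the authors' own comparisons and were not used. Each library's counts stood in 1 comparison table, which left out genes at or near 0 in its 4 libraries; the missing values were read from FPKM, which gave 28541 values of 1 read over all libraries and otherwise 0.

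Genes kept by filterByExpr (15637 of 33218 with any count) were tested with edgeR 4.0.16 in R 4.3.3, by the quasi-likelihood F test with TMM scaling and 24 group means fitted to 48 libraries, with Benjamini-Hochberg adjustment over all genes tested and calls at an adjusted p under 0.05. KPC effects were averaged over 6 times with equal weights. Shared rhythms and their differences used cosine and sine terms of 24 h; rhythms in single arms used least squares on FPKM in Python 3.11.15 (numpy 2.4.6, scipy 1.17.1) with an F test on 9 residual degrees of freedom. Intervals of folds are 95%. DESeq2 1.42.0, limma 3.58.1 on log2(FPKM + 1), no filter, a replicate block and fits leaving out 1 library or 1 time were alternatives. Scripts were tested on simulated counts.

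Samples were grouped by their titles. Duplicate libraries differed by more than counting error (chi-square per degree of freedom 5.15 to 17.4). Group contrasts in edgeR used a shared estimate of the spread of each gene over all 48 libraries, because 2 mice in a group give little. Their p-values at single times therefore do not rest on the spread of the compared mice alone. Depth sets the precision of low genes, most of all *Fam110d*. The 10 genes, the other gene lists and the motifs were chosen with earlier results of these data known. All 10 genes were named in each comparison; of the endothelial lists, up to 6 called genes with the smallest p were named per averaged contrast (2 where none was called), up to 8 for the rhythm, and other called genes of a list where their number was small; the 10 genes most alike were ranked by correlation. *Flt1*, *Cldn5* and other single time values were chosen for their size, after they were seen. Gene positions are from GENCODE M39, and promoter and microRNA sequences from RefSeq on GRCm38.p6. Overlaps of named genes were read from the same annotation.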

Additional observations from a re-analysis of the deposited data

Results flagged for a closer look

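Over 60 comparisons of a gene and a time, the KPC effect ran in opposite directions in the 2 genotypes in 5, with both KPC mice above both control mice in one genotype and both below in the other. The difference between the genotypes at single times was not tested, and 2 mice stand on each side. With so few mice such a pattern can arise without a difference. Its share over all genes is not given here, so the 5 are a description only. The pairs, in log2, were *Flt1* at CT30 with 0.33 in WT and −0.29 in FoxP1SkmKO mice, *Tie1* at CT34 with 0.23 and −0.13, and *Egfl7* at CT34 with 0.16 and −0.16. *Cldn5* did so at CT18 with −0.28 and 0.69 and at CT22 with 0.22 and −0.38.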

How the results depend on the processing

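Of the 10 genes, 2 were called for the KPC effect in WT mice, and 1 with limma or without CT18, CT22 or CT34, 0 without CT30 or CT38, and 1 to 3 without 1 library. In FoxP1SkmKO mice 1 was called, and 3 with no filter on low counts (*Cdh5*, *Kdr*, *Fam110d*), 0 with limma or without CT18, CT30 or CT38, and 0 to 1 without 1 library. *Flt1* in WT was called with DESeq2 and with no filter. FoxP1SkmKO minus WT in control mice gave 0 and, with no filter, 1 (*Flt1*). At single times WT gave 2, and 8 with no filter, 0 with limma, 3 and 4 with edgeR and DESeq2 on 4 libraries, and 0 to 2 without 1 library; FoxP1SkmKO gave 0, and 9 with no filter, 2 with DESeq2 on 48 libraries, 1 and 3 with edgeR and DESeq2 on 4, and 0 to 2 without 1 library. Difference in rhythm gave 0, and 2 (WT) and 4 (FoxP1SkmKO) with no filter and 1 with DESeq2 (*Pecam1*). The shared rhythm was called in 7 of 10 in each of the 48 fits without 1 library. In single arms, adjusted p gave 1, 0, 0 and 0 genes in WT control, WT KPC, FoxP1SkmKO control and FoxP1SkmKO KPC mice, and with a mean of at least 1 FPKM 4, 2, 1 and 0; log2(FPKM + 0.1) gave 3 in WT KPC mice; without 1 library the counts were 4 to 5, 2 to 3, 2 to 7 and 0 to 2.

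Near-zero values changed sign. *Flt1* in FoxP1SkmKO mice was −0.01 without CT18 or CT22, −0.00 without CT34 and −0.06 without CT38; the genotype difference of *Fam110d* was 0.20 without CT18, 0.01 without CT22 or CT38 and 0.04 without CT26; that of *Kdr* was 0.02 without CT22 and 0.03 without CT38. Of 390 other values of genes not called, 28 changed sign, the largest at 0.11 log2.

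Replicate numbers showed no pairing of mice common to the groups: over 276 pairs of groups, deviations correlated from −0.32 to 0.23, with a median of −0.004. The correlation was over 0.1 in 12 of these pairs, and a pairing within a few groups was not tested. A replicate block left the numbers of the 10 genes called as they were, 2 and 1 for the KPC effect (*Kdr* −0.27, *Fam110d* 0.94 and 0.95) and 7 for the rhythm, and changed the gene called in FoxP1SkmKO KPC mice from *Flt1* to *Pecam1*; over all genes it called 271 and 71 for the KPC effect in WT and FoxP1SkmKO mice, 548 and 43 for the genotype in control and KPC mice, and 5386 for the rhythm. The cause of these changes was not tested. Over all genes, the WT KPC effect gave 280, and 794 with no filter, 166 with limma, 138, 118 and 157 without CT26, CT30 and CT34, and 72 to 417 without 1 library; the FoxP1SkmKO KPC effect gave 67, and 527, 22 and 159 with no filter, limma and DESeq2, 3, 130, 15, 107 and 21 without CT18, CT22, CT30, CT34 and CT38, and 17 to 236 without 1 library. With no filter the genotype difference in the KPC effect gave 104 in place of 0, FoxP1SkmKO minus WT 933 in place of 538 in control (323 without CT18, 268 without CT38) and 470 in place of 50 in KPC mice (28 with limma, 106 with DESeq2, and 0 to 138 without 1 time), and the difference in rhythm 314 in WT and 582 in FoxP1SkmKO mice (1 and 66 with DESeq2). Calls over the 6 single times were 2120 in WT and 1678 in FoxP1SkmKO mice with no filter, and 480 and 81 with edgeR on 4 libraries, and in FoxP1SkmKO mice 6 with limma and 178 and 197 with DESeq2 on 48 and 4 libraries.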
